A study of Mus musculus with 19 samples.

Results

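Glutathione and Nrf2 antioxidant genes were followed in ribosome-bound messenger RNA from mouse brain astrocytes. The set is 10 genes picked by symbol: Nfe2l2, Slc7a11, Gclc, Gclm, Gpx1, Gpx4, Gstm1, Prdx6, Hmox1 and Nqo1. All 10 were found, each as 1 row, among the 21749 genes of the deposited table. All 10 also passed the filter on low values (a log2 value of at least 3.32 in at least 3 libraries), as did 20644 genes or 94.9% of the table. All animals carried the transgene Tg(Aldh1l1-EGFP/Rpl10a)JD130Htz on a B6;FVB background, in which the Aldh1l1 regulatory sequence drives a ribosomal protein fused to a green fluorescent protein. Tagged ribosomes were pulled down with magnetic beads and their RNA was sequenced, an approach called translating ribosome affinity purification (TRAP). The groups were males (4 libraries), and females in metestrus (8), proestrus (3) or estrus (4), all 3 female stages collected at 09:00. The males' collection hour, the animals' age and whether a library came from 1 animal are not given in the labels, so p-values measure the spread between libraries. No treatment beyond sex and cycle stage is named in the labels.

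Nrf2, the product of Nfe2l2, is a transcription factor that is held in the cytoplasm and marked for breakdown by Keap1 until oxidants or electrophiles modify Keap1. It then enters the nucleus, pairs with small Maf proteins and binds antioxidant response elements near genes of glutathione synthesis, detoxification and heme breakdown. Glutathione is a small thiol peptide made from glutamate, cysteine and glycine that peroxidases and transferases use up and glutathione reductase restores. In brain, astrocytes hold much of this system and release glutathione that neurons use as a source of cysteine.

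None of the 10 genes differed between any of the groups compared by an adjusted p under 0.05. That held for proestrus over metestrus, where 0.988% of all tested genes passed, and for estrus over metestrus, where 0.0872% did. It also held for estrus over proestrus (0.940% of tested genes passed) and for males over metestrus (0.0242% passed). A single test for any difference among the 4 groups called none of the 10 either, with 0.635% of tested genes passing. At an unadjusted p under 0.05 the number of members was still 0 in each of the 4 comparisons, against 13.1%, 11.3%, 14.5% and 5.33% of tested genes in the order just given. Group ranges overlapped for every member in every comparison. Of all tested genes, the ranges did not overlap for 8.73% in proestrus against metestrus, 3.33% in estrus against metestrus, 9.06% in estrus against proestrus and 1.44% in males against metestrus, so 0 of 10 members is close to the background. The tests were made with limma on all 19 libraries with batch in the model, with Benjamini-Hochberg adjustment across the full set of tested genes. A p above the threshold does not show that the groups were alike, so the 95% interval of each difference is used below.

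**Figure D1:**
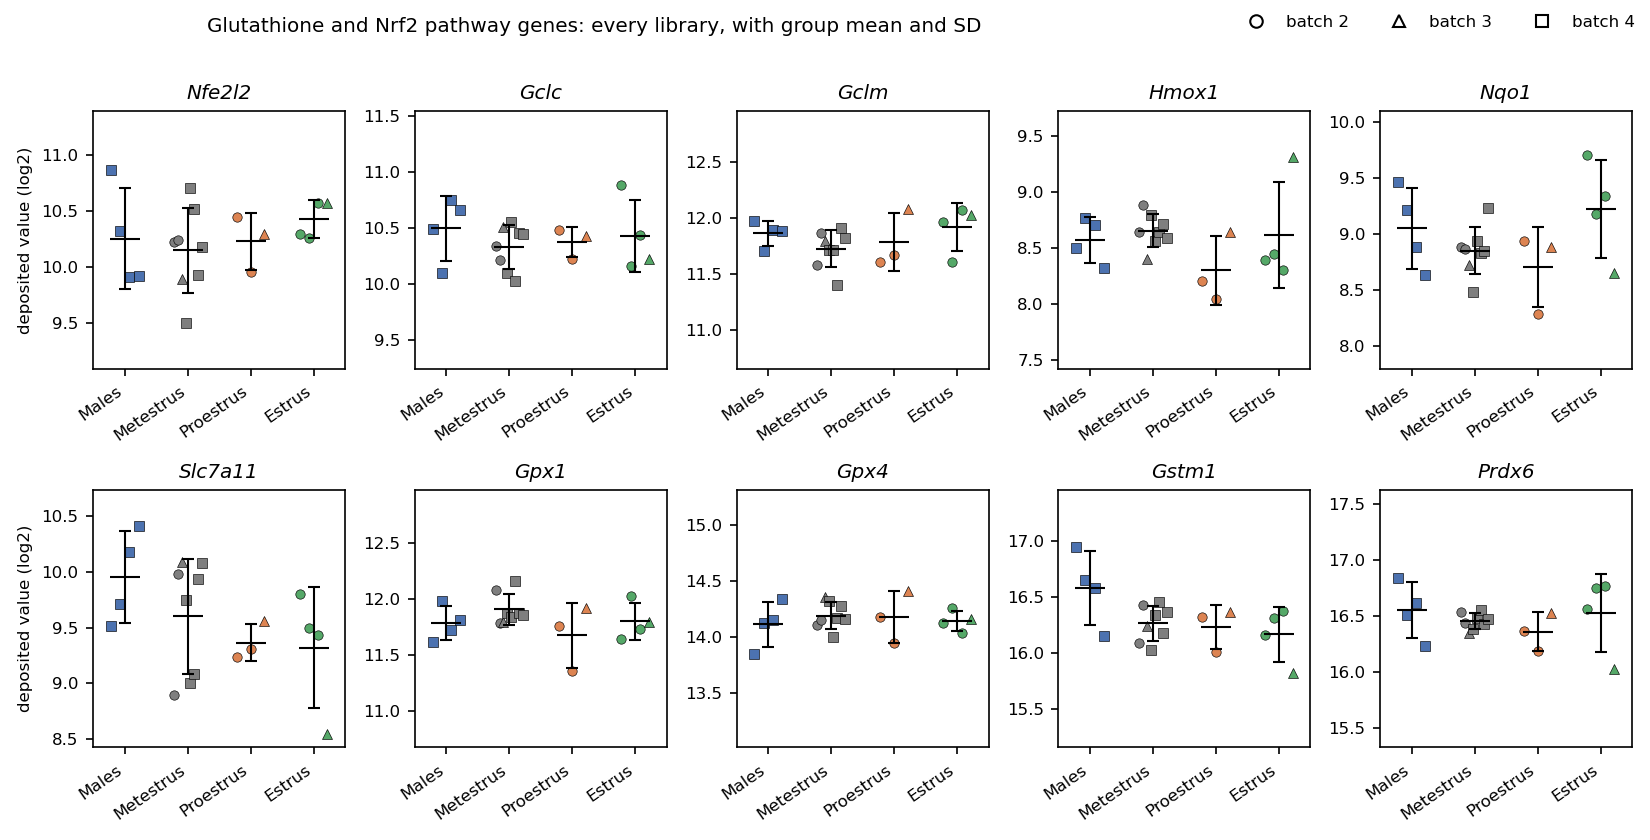
Each panel plots the deposited log2 value of 1 gene in every library (circles batch 2, triangles batch 3, squares batch 4), with the group mean and SD as bars. All panels span the same number of log2 units around their own centre, so spreads can be compared by eye. The 4 groups overlap in every panel, and 1 estrus library of batch 3 sits apart for Hmox1 (9.31) and Slc7a11 (8.55).

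Fitted differences ranged from -0.34 to 0.50 on the log2 scale over the 40 combinations of a member and a comparison. In 37 of the 40 the 95% interval lay between -1 and 1, that is within a 2-fold difference in either direction, and all 40 intervals held 0. The 3 exceptions were Slc7a11 in proestrus and in estrus over metestrus and Nqo1 in estrus over proestrus, each of which reached just past 1 log2 unit on 1 side. Directions of variation are missing from the deposited values, as described below, so these intervals are too narrow and 37 may be too high. Slc7a11 in males over metestrus, with an upper bound of 0.98, lay just inside. The median log2 fold change of the members was -0.05 in proestrus over metestrus, where the median of all tested genes was -0.09. In the other comparisons it was 0.04 for the members and -0.07 for all tested genes (estrus over metestrus), 0.14 and 0.02 (estrus over proestrus), and 0.12 and 0.04 (males over metestrus). Proestrus and estrus were both set against the same metestrus libraries, and estrus against the same proestrus libraries, so these comparisons are not independent of each other.

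**Figure D2:**
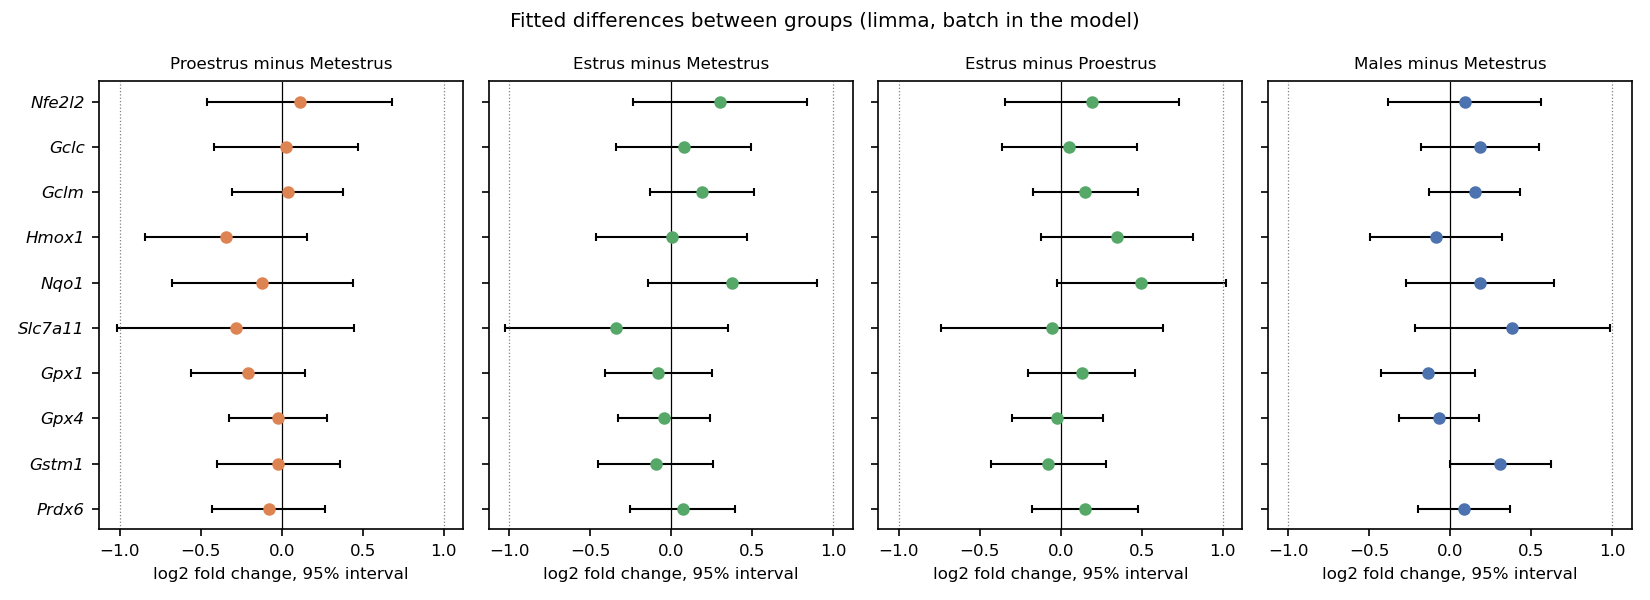
Points are fitted log2 fold changes and bars their 95% intervals, with 1 panel per comparison and 1 row per gene. Solid lines mark no difference and dotted lines a 2-fold difference. All 40 intervals cross the solid line, and the highest point is Nqo1 in estrus over proestrus at 0.50.

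The groups were not spread evenly over the 3 batches named in the labels, and this shaped what could be compared. In batch 2 there were 2 libraries from metestrus, 2 from proestrus and 3 from estrus. Batch 3 had 1 of each stage, and batch 4 had 5 from metestrus and all 4 from males. With batch in the model, stage differences rest on batches 2 and 3 and the male difference rests on batch 4, and males were not compared with proestrus or estrus. The depth of the libraries is unknown. The deposited values miss 4 directions of between-library variation while the group means remain, which makes p-values too small. Counting these directions in the limma fit cut the genes called from 204 to 75 in proestrus over metestrus. Estrus over proestrus went from 194 to 52 and estrus over metestrus from 18 to 0, while males over metestrus kept 5. Astrocyte markers (20 genes) had a mean log2 value of 13.97 ± 0.10 in males (SD, n = 4), 13.76 ± 0.19 in metestrus (n = 8), 13.66 ± 0.05 in proestrus (n = 3) and 13.65 ± 0.33 in estrus (n = 4). Neuron markers (18 genes) averaged 11.57 to 11.74 over the groups and the neuronal gene Snap25 averaged 15.50 to 15.90, so RNA of other cells was present. In such a mixture, fewer cells of a type and less RNA per cell cannot be told apart. Nuclear retained RNAs (7 genes) averaged 9.95 ± 0.93 in males, 10.06 ± 0.39 in metestrus, 9.31 ± 1.36 in proestrus and 7.97 ± 1.23 in estrus. Their part in the results below was not tested. Of the label checks, Ddx3y (Y chromosome) averaged 8.09 ± 0.48 in males and 1.55 to 1.64 in the 3 female groups. Xist averaged 2.74 ± 2.19 in males, but its estrus values went down to 4.51 while 1 male library stood at 5.11.

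The regulator comes first. Nfe2l2 (ENSMUSG00000015839.7) stood at 10.87, 10.33, 9.91 and 9.92 in the 4 male libraries, while in the 8 metestrus libraries its lowest, median and highest values were 9.50, 10.20 and 10.71. In proestrus its values were 10.45, 9.95 and 10.29, and in estrus they were 10.30, 10.26, 10.57 and 10.57. The estrus libraries were close together, with 10.57 and 10.57 near the top of the range and 10.30 and 10.26 near its middle. Male and metestrus libraries lay both above and below them. Its log2 fold change was 0.30 ± 0.26 in estrus over metestrus (SE; 95% interval -0.23 to 0.84, adjusted p = 0.69), and fits that each omit 1 library gave 0.16 to 0.37. In proestrus over metestrus it was 0.11 ± 0.28 (adjusted p = 0.909), and in males over metestrus 0.09 ± 0.23 (adjusted p = 0.999). The activity of Nrf2 is set largely by protein stability, which these values do not measure.

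Promoter sequence was read for the members because Nrf2 acts through a short element, and 7 of the 10 had a window in the RefSeq table (assembly GRCm38.p6) used here. Each window runs from 250 bases before to 50 bases after a gene's start. The core of the antioxidant response element, TGACNNNGC on either strand, was in 12.4% of all 32851 windows of that length. Among the members it was found in Nfe2l2 and in Gclm, and it was not in the windows of Slc7a11, Gpx1, Gpx4, Gstm1 and Nqo1. The 12.4% is a share of windows, while the members are counted as genes, and Gpx4 and Gstm1 had more than a single window each. No excess of matches over the background is read from these few genes. No promoter was used for Gclc, Hmox1 and Prdx6. A match is a run of letters and not a measured site, and a window without one says nothing of elements farther away. The stretches below show both matches, 5′ to 3′ on the gene's strand, with the element in capitals. Neither overlaps an AP-1 element (TGANTCA). The Nfe2l2 match lies on the gene's own strand and its first base is at -240 relative to the start, and the Gclm match is on the other strand, at -134.
Nfe2l2 promoter, chr2:75704875-75704913, minus strand, GRCm38.p6: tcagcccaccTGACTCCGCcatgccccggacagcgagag
Gclm promoter, chr3:122245403-122245451, plus strand, GRCm38.p6: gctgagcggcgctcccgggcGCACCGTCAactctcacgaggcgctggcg

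Cystine uptake and glutathione synthesis are covered by 3 members. Slc7a11 (ENSMUSG00000027737.11) encodes xCT, the chain of the cystine/glutamate exchanger that brings in the cystine from which cysteine is made. Its values in males were 9.51, 9.71, 10.18 and 10.41, and in metestrus the lowest, median and highest were 8.90, 9.84 and 10.08. Proestrus libraries stood at 9.24, 9.31 and 9.55, and estrus libraries at 9.80, 9.49, 9.43 and 8.55. Metestrus split into 3 libraries at or below 9.08 and 5 at or above 9.75, with both kinds in batches 2 and 4. This was the most variable member, with an SD of 0.49 over the 19 libraries. Slc7a11 had a log2 fold change of 0.38 ± 0.29 in males over metestrus (SE; 95% interval -0.22 to 0.98, adjusted p = 0.983), with a leave-one-out range of 0.23 to 0.53. In estrus over metestrus it was -0.34 ± 0.33 (95% interval -1.03 to 0.35, adjusted p = 0.739), and 0.08 without estrus replicate 4. In estrus over proestrus the difference was -0.05 ± 0.33 (adjusted p = 0.966), and 0.36 without estrus replicate 4.

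Gclc (ENSMUSG00000032350.10) and Gclm (ENSMUSG00000028124.17) encode the catalytic and the modifier subunit of glutamate-cysteine ligase, the rate-limiting enzyme of glutathione synthesis. Gclc averaged 10.50 ± 0.29 in males (SD, n = 4), 10.33 ± 0.20 in metestrus (n = 8), 10.37 ± 0.13 in proestrus (n = 3) and 10.43 ± 0.33 in estrus (n = 4). Gclm averaged 11.86 ± 0.11 in males, 11.73 ± 0.16 in metestrus, 11.79 ± 0.26 in proestrus and 11.92 ± 0.21 in estrus. Metestrus had the lowest mean of the 4 groups for both subunits, and the means of each subunit lay within 0.19 log2 units of each other. These means carry no batch term. For Gclm the fitted differences were 0.19 ± 0.16 in estrus over metestrus (SE, adjusted p = 0.678), 0.15 ± 0.16 in estrus over proestrus (adjusted p = 0.702) and 0.15 ± 0.14 in males over metestrus (adjusted p = 0.987). Omitting 1 library at a time gave 0.12 to 0.30, 0.082 to 0.26 and 0.074 to 0.20 in these comparisons. For Gclc the largest of the 4 was 0.18 ± 0.18 in males over metestrus (adjusted p = 0.992), with 0.10 to 0.32 over the leave-one-out fits. The values of the subunits varied together to some degree, with Pearson r = 0.49 over the 19 libraries.

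Gpx4 (ENSMUSG00000075706.12) had the smallest SD of the 10 members over the 19 libraries. It encodes the selenoenzyme that reduces lipid peroxides in membranes and restrains ferroptosis, and averaged 14.11 ± 0.20 in males (SD, n = 4) and 14.19 ± 0.12 in metestrus (n = 8). It averaged 14.18 ± 0.23 in proestrus (n = 3) and 14.14 ± 0.09 in estrus (n = 4). All 19 Gpx4 values fell between 13.84 and 14.41, and 0.44% of tested genes had a smaller SD over the libraries. That share is over genes of all levels. The median SD was 0.31 among tested genes with a mean of at least 8 and 0.49 over all, and no share among genes of similar level was taken. Its 95% intervals stayed within -0.33 and 0.28 in all 4 comparisons. Gpx1 (ENSMUSG00000063856.9), the soluble peroxidase that uses glutathione to reduce hydrogen peroxide, averaged 11.78 ± 0.16 in males, 11.91 ± 0.14 in metestrus, 11.67 ± 0.29 in proestrus and 11.80 ± 0.16 in estrus. The lowest of its 19 values, 11.35, was in proestrus replicate 2. In proestrus over metestrus the Gpx1 difference was -0.21 ± 0.17 (SE; 95% interval -0.56 to 0.14, adjusted p = 0.644), and -0.05 without that library and -0.35 without proestrus replicate 3.

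Gstm1 and Prdx6 shared the library of their highest value, male replicate 1, and that of their lowest, estrus replicate 4. Gstm1 (ENSMUSG00000058135.13), a mu-class transferase that joins glutathione to electrophiles, stood at 16.94, 16.65, 16.58 and 16.15 in males. In metestrus its lowest, median and highest values were 16.03, 16.28 and 16.45. In proestrus it stood at 16.32, 16.005 and 16.36, and in estrus at 16.15, 16.31, 16.37 and 15.82. In males 3 of the 4 libraries lay above every female library, and the fourth lay inside the metestrus range. The log2 fold change in males over metestrus was 0.31 ± 0.15 (SE; 95% interval -0.0039 to 0.62), with an unadjusted p of 0.0526 and an adjusted p of 0.934. This was the lowest unadjusted p of any member, and it ranked 1160 among the 20644 genes tested in the same comparison. Leaving out single libraries gave 0.19 to 0.45. The astrocyte marker mean was also 13.97 ± 0.10 in males and 13.76 ± 0.19 in metestrus (SD, n = 4 and 8), with 18 of its 20 genes fitted higher in males, and its part in the Gstm1 difference was not tested.

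Prdx6 (ENSMUSG00000026701.16) encodes a peroxiredoxin that reduces phospholipid peroxides with the help of glutathione. It stood at 16.84, 16.51, 16.62 and 16.23 in males, and its lowest, median and highest metestrus values were 16.35, 16.46 and 16.55. Proestrus libraries had 16.36, 16.18 and 16.53, and estrus libraries 16.56, 16.75, 16.77 and 16.03. The metestrus libraries kept to a narrow band (SD 0.07, n = 8), whereas males and estrus reached above and below it. Its largest fitted difference was 0.15 ± 0.16, in estrus over proestrus (SE, adjusted p = 0.707), with 0.014 to 0.36 over the leave-one-out fits. Gstm1 belongs to a gene family with similar sequences and Prdx6 has a retrocopy in mouse, and how shared reads were assigned is not given in the labels.

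Of the 4 groups, estrus had the widest spread for both classical stress-response targets. Hmox1 (ENSMUSG00000005413.9), the inducible heme oxygenase that breaks heme into biliverdin, iron and carbon monoxide, stood at 8.49, 8.76, 8.70 and 8.31 in males. Its lowest, median and highest metestrus values were 8.39, 8.64 and 8.88. Proestrus libraries stood at 8.21, 8.04 and 8.64, and estrus libraries at 8.39, 8.45, 8.30 and 9.31. Estrus replicate 4, from batch 3, had the highest value of all 19 libraries, while the other 3 estrus libraries lay at the lower edge of metestrus. The log2 fold change in estrus over metestrus was 0.00 ± 0.23 (SE; 95% interval -0.46 to 0.47, adjusted p = 0.998), and -0.24 without estrus replicate 4. Within batch 2 it was -0.38 (3 estrus and 2 metestrus libraries), and within batch 3 it was 0.92 (1 library each). In proestrus over metestrus it was -0.34 ± 0.24 (95% interval -0.84 to 0.15, adjusted p = 0.578), with -0.64 in batch 2 and 0.25 in batch 3, and -0.71 to -0.14 over the leave-one-out fits. In both comparisons the batches therefore gave opposite signs. Red blood cell genes (5) in estrus replicate 4 had a mean of 9.03, inside the estrus range of 8.65 to 10.18. That mean includes Alas2, a low gene with an SD of 2.75 in estrus, while the hemoglobin genes had 0.14 to 0.24. By other marker lists this library differed from the other estrus libraries, which are all from batch 2. Its nuclear retained RNAs averaged 9.49, against 6.54 to 8.22 in the other estrus libraries. Metestrus libraries had 9.70 to 10.70, and the proestrus and metestrus libraries of batch 3 had 10.43 and 10.51. Its endothelial and mural markers were also the highest of the estrus group, where the other libraries had 4.90 to 5.10. Its astrocyte marker mean of 13.17 was the lowest of all libraries. The part of these in its Hmox1 value was not tested.

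Nqo1 (ENSMUSG00000003849.9), a quinone reductase that is a standard readout of Nrf2 activity, stood at 9.47, 9.21, 8.89 and 8.64 in males. Its lowest, median and highest metestrus values were 8.48, 8.86 and 9.23. In proestrus Nqo1 had 8.94, 8.29 and 8.88, and in estrus 9.71, 9.18, 9.34 and 8.66. The 3 estrus libraries of batch 2 were above all 3 proestrus libraries, and the estrus library of batch 3 was below 2 of them. The log2 fold change in estrus over proestrus was 0.50 ± 0.25 (SE; 95% interval -0.02 to 1.02), with an unadjusted p of 0.0608 and an adjusted p of 0.368. It was 0.80 within batch 2 and -0.23 within batch 3, and leave-one-out values ran between 0.22 and 0.73. The Nqo1 difference in estrus over metestrus was 0.38 ± 0.25 (95% interval -0.14 to 0.90, adjusted p = 0.584), and its leave-one-out values were 0.24 to 0.61.

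The order of the group means was not shared by the members. Males had the highest mean for 4 of them (Gclc, Slc7a11, Gstm1 and Prdx6), metestrus for 3 (Hmox1, Gpx1 and Gpx4) and estrus for 3 (Nfe2l2, Gclm and Nqo1). Proestrus was highest for 0 and lowest for 4 (Hmox1, Nqo1, Gpx1 and Prdx6). Neighbouring groups in each order had overlapping ranges. The distance between the highest and the lowest group mean was smallest for Gpx4, at 0.08 log2 units, and largest for Slc7a11, at 0.63.

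Spread between libraries differed among the members. The SD over the 19 libraries ran from 0.14 (Gpx4) to 0.49 (Slc7a11), and the median over the 20644 tested genes was 0.49. Among the 9521 tested genes with a mean of at least 8 the median SD was 0.31, with 7 of the 10 members below it and Nfe2l2, Nqo1 and Slc7a11 above it. A median has as many genes below as above, so this count is close to its background and says little of the set. After group and batch were fitted, the residual SD of Slc7a11 was 0.50, above the median of 0.45 over all tested genes. The values lack the directions taken out before deposit, so the spread before that step is not known.

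**Figure D3:**
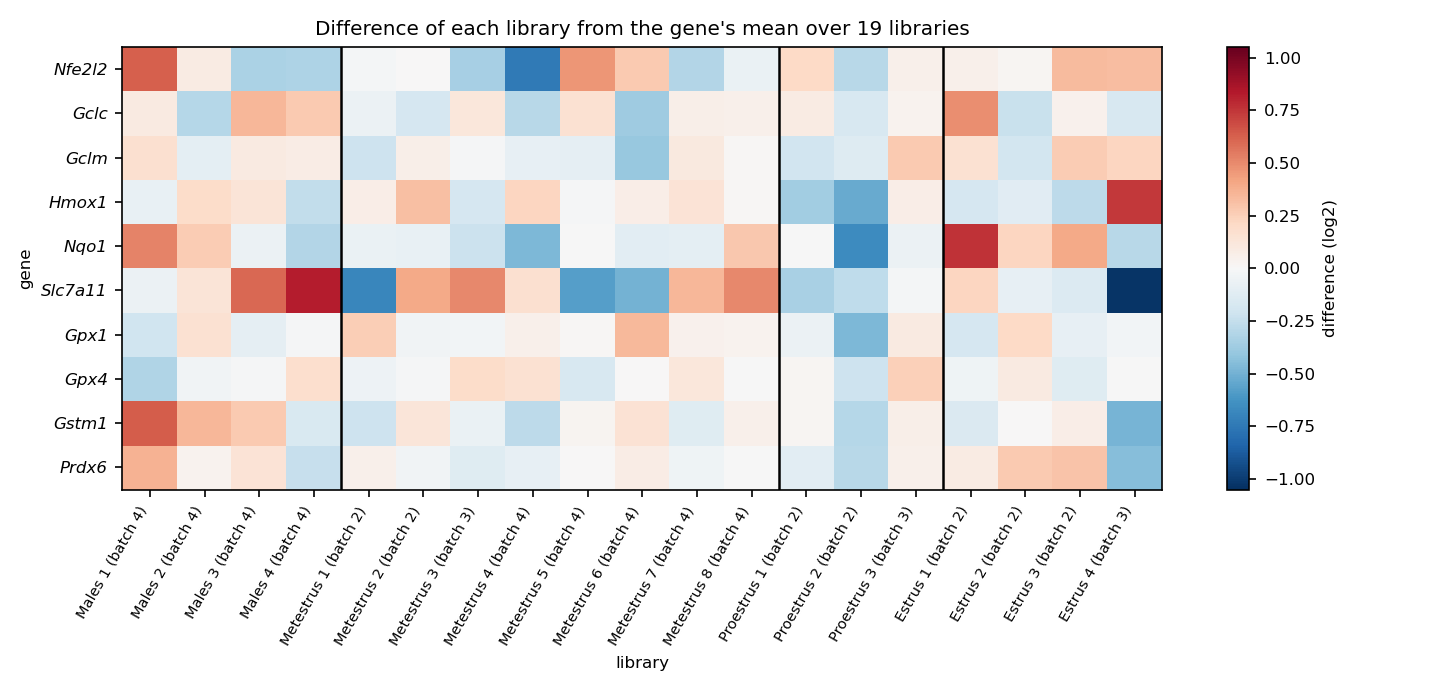
Colours show how far each library (columns, by group and batch) lies from the gene's mean over the 19 libraries (rows, log2 units). Proestrus replicate 2 is below the mean for all 10 genes, and estrus replicate 4 holds the highest Hmox1 value (0.74 above its mean) and the deepest negative value of the map, Slc7a11 at -1.03.

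The highest and lowest values fell in several libraries. Proestrus replicate 2 was below the 19-library mean for all 10 members, by 0.14 to 0.66 log2 units, and was the lowest library for 3 of them (Hmox1, Nqo1 and Gpx1). Estrus replicate 4 was the lowest for Slc7a11, Gstm1 and Prdx6 and the highest for Hmox1. Its astrocyte marker mean was 13.17, below all other libraries (13.58 to 14.12), and the part of that in its member values was not tested. Male replicate 1 was the highest for Nfe2l2, Gstm1 and Prdx6 and the lowest for Gpx4. Estrus replicate 1 was the highest for Gclc and Nqo1, and proestrus replicate 3 for Gclm and Gpx4.

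Over the libraries the members did not move as a block. Of the 45 pairs of members, 31 had a positive and 14 a negative Pearson r over the 19 libraries, the median was 0.08, and 4 exceeded 0.5. These were Gstm1 with Prdx6 (r = 0.73), Nqo1 with Prdx6 (0.72), Nfe2l2 with Nqo1 (0.55) and Nqo1 with Gstm1 (0.55). With group means taken out, Gstm1 and Prdx6 had r = 0.84. The lowest were Nfe2l2 with Gpx4 (-0.59) and Nfe2l2 with Slc7a11 (-0.58). The 19 points share scaling, batch and the directions taken out before deposit, which can raise r, so these are descriptions of the table.

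**Figure D4:**
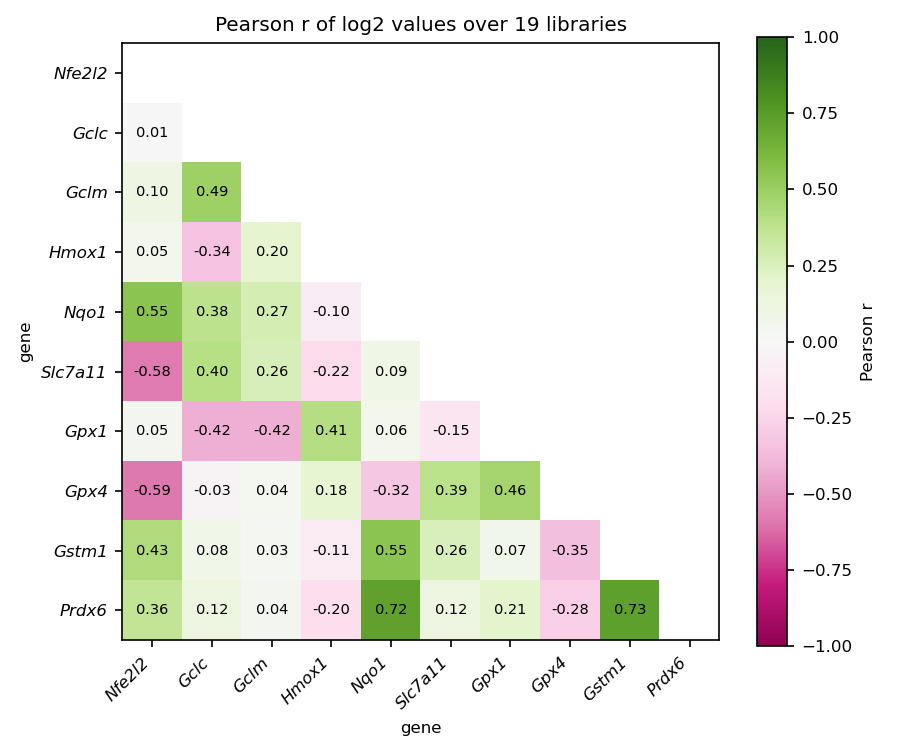
Each cell gives Pearson r between the log2 values of a row gene and a column gene over the 19 libraries. A group of Nqo1, Gstm1 and Prdx6 stands out with values from 0.55 to 0.73, while Nfe2l2 has its lowest values with Gpx4 (-0.59) and Slc7a11 (-0.58).

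Several members varied with the astrocyte markers over the libraries. Slc7a11 had r = 0.72 with the mean of the 20 astrocyte markers over the 19 libraries, Gstm1 0.68, Prdx6 0.53, Nqo1 0.52 and Gclc 0.44, and Hmox1 had -0.42. With the 18 neuron markers r was 0.51 for Nfe2l2, -0.47 for Gclm and -0.53 for Slc7a11. With the 13 microglia and macrophage markers it was 0.59 for Gpx1 and 0.52 for Gpx4, and -0.49 for Gclm, -0.47 for Nfe2l2 and -0.43 for Gclc. With choroid plexus and ependymal markers (12 genes) it was -0.49 for Nfe2l2 and -0.48 for Gclc, with oligodendrocyte markers (12) 0.43 for Nqo1, and with endothelial and mural markers (14) 0.42 for Gpx1. Slc7a11 was most like Aqp4, the water channel of astrocyte endfeet and 1 of those astrocyte markers (r = 0.93), followed by Cldnd1 (0.88). Gstm1 was most like Ppp1r3g (0.86) and the astrocyte neurotensin receptor gene Ntsr2 (0.84), and Gpx4 most like the ribosomal protein gene Rpl35a (0.88) and Nop10 (0.85). For Nfe2l2 these were the tubulin gene Tubb4b (0.88) and the mitochondrial phosphate carrier gene Slc25a3 (0.88), and for Nqo1 the deacetylase gene Sirt2 (0.85) and Rsu1 (0.84). The nearest genes had r = 0.91 for Gclc (Usp6nl), 0.84 for Gclm (Dtna), 0.83 for Prdx6 (Ppia), 0.81 for Gpx1 (Utrn) and 0.72 for Hmox1 (the linker histone gene H1f4). All of these are the nearest among the 9521 tested genes with a mean log2 value of at least 8. A highest r picked from so many genes over 19 libraries is large in part through that choice. The marker list r values given are likewise the larger ones, with smaller ones left out.

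The rest of the pathway was read from 6 lists that held 137 further genes, of which 128 were tested. In proestrus over metestrus 1 passed the threshold, with a lower level in proestrus, and in estrus over proestrus 1 passed, with a higher level in estrus. That is 0.781% of the tested list genes in each case, against 0.988% and 0.940% of all tested genes. In estrus over metestrus and in males over metestrus the count was 0 in both directions, against 0.0872% and 0.0242% of all tested genes. At an unadjusted p under 0.05 the lists held 7, 12, 17 and 6 genes in proestrus over metestrus, estrus over metestrus, estrus over proestrus and males over metestrus, that is 5.47%, 9.38%, 13.3% and 4.69%. Each share is below that of all tested genes given above. Median log2 fold changes over the 128 genes were -0.04, 0.05, 0.12 and 0.07 in the same comparisons.

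The called gene was Gstp2 (ENSMUSG00000038155.12) in both comparisons, a pi-class glutathione transferase. It stood at 2.44, 0.24 and 2.60 in proestrus, at 4.96, 5.08, 5.25 and 5.19 in estrus, at 5.30, 4.94, 4.14 and 2.82 in males and between 4.28 and 5.53 in metestrus. All 3 proestrus libraries were below all 12 other female libraries, at values under 3.32 where the size of a fold change is uncertain. Its log2 fold change was -2.93 ± 0.70 in proestrus over metestrus (SE, adjusted p = 0.0455) and 3.42 ± 0.66 in estrus over proestrus (adjusted p = 0.0141). With the removed directions counted the adjusted p was 0.127 and 0.0529, and with values under 3.32 raised to 3.32 the differences were -1.36 (adjusted p = 0.244) and 1.82 (adjusted p = 0.0514). Batches 2 and 3 alone give the same fold changes by construction, since the stage differences already rest on them. The errors were larger there (SE 0.81 and 0.76), with an adjusted p of 0.296 and 0.168. Leaving out single libraries gave -3.41 to -2.21 with an adjusted p of 0.0459 to 0.19 in proestrus over metestrus, and 2.68 to 3.92 with 0.0148 to 0.0891 in estrus over proestrus. The call was kept in 3 of these 15 fits in proestrus over metestrus and in 14 of 15 in estrus over proestrus, the exception being the fit without proestrus replicate 2. The near-identical Gstp1 had group means of 13.29 to 13.42 over the 4 groups, and how reads shared by the pair were assigned is not given.

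**Figure D5:**
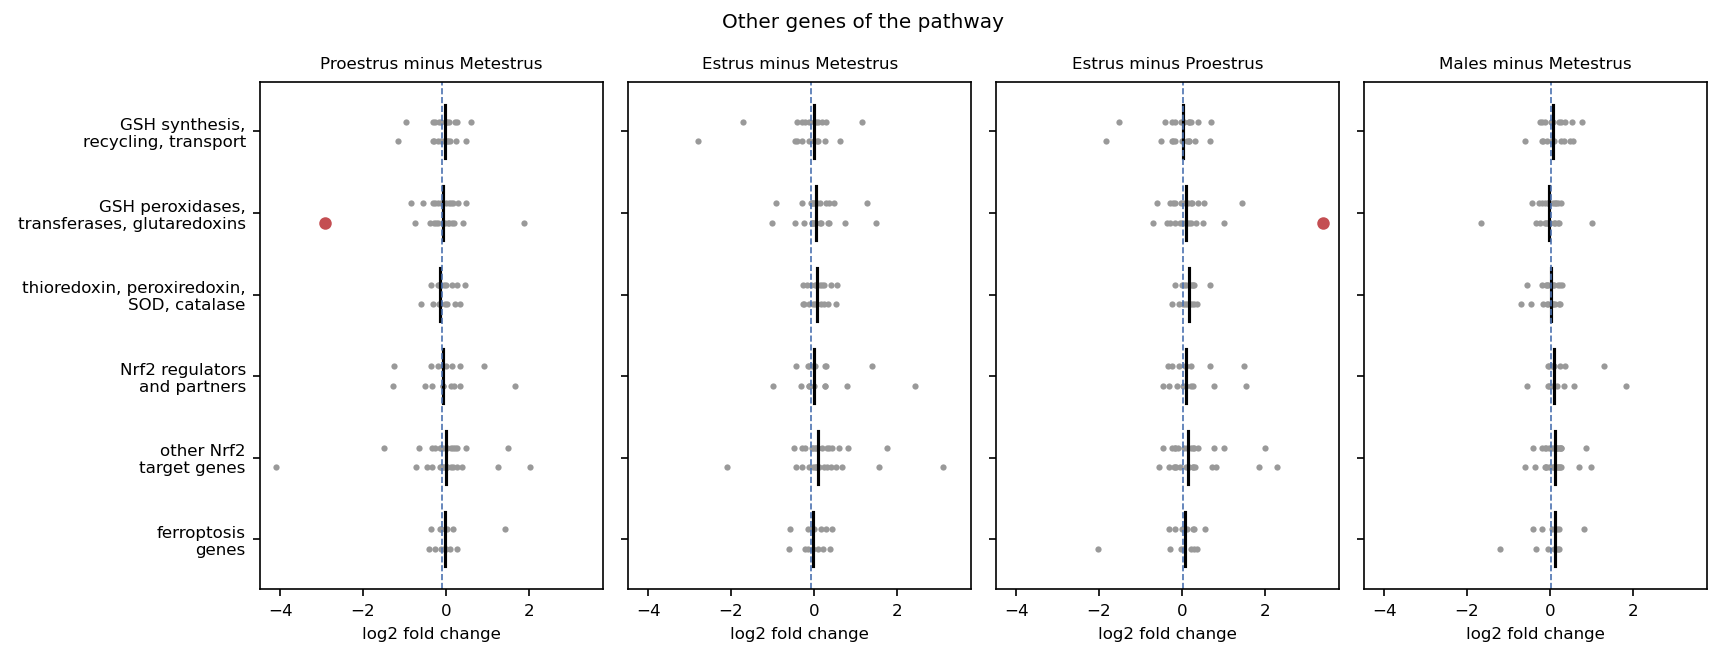
Each grey dot is the fitted log2 fold change of 1 gene of a list (rows), with 1 panel per comparison. Black bars are list medians, the dashed line is the median of all tested genes, and the larger red dot marks Gstp2, the gene past the threshold. List medians lie close to the dashed line in all 4 panels.

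Of the glutathione synthesis, recycling and transport genes (22 tested), 0 were called in any comparison. The 5-oxoprolinase gene Oplah, whose product returns glutamate to the cycle, had 0.62 ± 0.28 in proestrus over metestrus (SE, adjusted p = 0.358) and 0.62 ± 0.27 in estrus over metestrus (adjusted p = 0.387). Slc3a2, the heavy chain that carries xCT to the membrane, had 0.30 ± 0.21 in estrus over proestrus (adjusted p = 0.538). Glutathione synthetase, Gss, had 0.29 ± 0.24 in estrus over metestrus (adjusted p = 0.675) and -0.25 ± 0.21 in males over metestrus (adjusted p = 0.984). Ggt1, which cleaves extracellular glutathione, is named although its low level put it outside the genes chosen for naming. Its mean was 2.10 ± 0.73 in the 4 estrus libraries (SD) and 4.87 ± 0.40 in metestrus (n = 8), a log2 fold change of -2.81 ± 0.56 with an adjusted p of 0.0533. All 4 estrus values were under 3.32, where the size of a fold change is uncertain, and with low values raised to 3.32 it was -1.57 (adjusted p = 0.149). Without the filter on low values the adjusted p was 0.0477, and it was 0.213 once the removed directions were counted. In batches 2 and 3 alone, where the difference is the same by construction, the adjusted p was 0.528. Of the glutathione peroxidases, transferases and glutaredoxins (27 tested) Gpx8, a peroxidase of the endoplasmic reticulum, had -0.56 ± 0.24 in proestrus over metestrus (adjusted p = 0.316) and 0.50 ± 0.23 in estrus over proestrus (adjusted p = 0.30).

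Among thioredoxin, peroxiredoxin, superoxide dismutase and catalase genes (20 tested) 0 were called, and 17 of the 20 had a positive fold change in estrus over proestrus, with a median of 0.17. Over all tested genes 10732 of 20644 were positive there and the median was 0.02. Sod2, the mitochondrial superoxide dismutase, had 0.29 ± 0.15 in that comparison (SE, adjusted p = 0.383), and Prdx4, the peroxiredoxin of the endoplasmic reticulum, had -0.46 ± 0.16 in males over metestrus (adjusted p = 0.852). Of the 17 regulators and partners of Nrf2, 0 were called. Dpp3, whose product binds Keap1, had 0.78 ± 0.24 in estrus over proestrus (adjusted p = 0.11) and Nfe2l1, the related factor Nrf1, had -0.42 ± 0.22 in estrus over metestrus (adjusted p = 0.469). Cdkn1a, the cell cycle inhibitor p21, had 0.59 ± 0.25 in males over metestrus (adjusted p = 0.868). Of the other Nrf2 target genes (31 tested) and the ferroptosis genes (14 tested) 0 were called as well. Fech, the last enzyme of heme synthesis, came nearest of these with 0.74 ± 0.20 in estrus over proestrus (adjusted p = 0.0699), and Pir, which encodes the iron-binding nuclear protein pirin, had 0.78 ± 0.27 there (adjusted p = 0.167). Lpcat3, which builds polyunsaturated fatty acids into phospholipids, had -0.58 ± 0.26 in estrus over metestrus (adjusted p = 0.412).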

How the data were processed

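RNA bound to tagged ribosomes was measured in 19 libraries. Per the submitters' processing notes, the reads were handled with Salmon, STAR and edgeR and the build was GRCm39. Versions, roles and order are not given. The values deposited by the authors are on a log2 scale, and their scaling, pseudocount and filters are not stated. They were used as they are, although the planned tests assumed counts or an added pseudocount of 1. After centring each gene the 19 columns had rank 14 where 18 is possible, and 11 of 15 after the groups were fitted, so 4 directions were removed upstream. The depth is unknown, so no counting interval is given.

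A model of group plus batch was fitted with limma 3.58.1 (R 4.3.3, trend and robust options) to the 20644 genes with a value of at least 3.32, which is 10 before the log, in at least 3 libraries. Tests were two-sided, with Benjamini-Hochberg adjustment over these genes and a threshold of 0.05, and used 13 residual degrees of freedom where the rank allows 11. Replicate numbers are names and follow the order of the samples. The members, gene lists and tests were chosen with earlier results of these data known. All members are named. Other genes are named if past the threshold, or if among the largest or smallest changes of their list at a mean log2 value of at least 8. Alternatives were no filter, low values raised to 3.32, median centring, no batch term, the removed directions counted, no robust prior, each library left out, batches taken alone, and a replicate block. Batch 2 alone was added after seeing the data. Promoters are from RefSeq (GRCm38.p6), and no coordinates are given for the GRCm39 values. Figures were drawn with matplotlib 3.10.9.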

Additional observations from a re-analysis of the deposited data

Results flagged for a closer look

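Hmox1 in estrus replicate 4 had a log2 value of 9.31, while the other 3 estrus libraries lay between 8.30 and 8.45. The gap to the nearest of these was 0.85 of the group's whole range, above the limit of Dixon's test for 4 values. Of the 30 combinations of a member and a group of 4 or more libraries that were checked, this was the 1 that passed that limit, and chance alone passes about 1 in 20.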

How the results depend on the processing

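No member passed the threshold under any of the alternatives run. Over 890 refitted member differences the lowest adjusted p was 0.15, and over 250 refits of the 4-group test it was 0.178. The sign was kept in 840 of the 890 and turned in 50. Among those that turned, the largest refitted value in either direction was 0.38 on the log2 scale. The cause of the turns was not tested. The 840 include refits that cannot change a fold change. With batch in the model, omitting a library from a batch that a comparison does not rest on leaves the difference the same by construction. Dropping the filter or the robust option, or counting the removed directions, also leaves it the same. The 840 is therefore not a measure of how stable the signs are. Median centring gave proestrus over metestrus values of 0.012 (Gpx4) and 0.016 (Gstm1), and no batch term gave -0.039 for Hmox1 in estrus over metestrus. Batch 2 alone turned Nfe2l2 (-0.032) and Gclm (-0.091) in proestrus over metestrus, Hmox1 (-0.38), Slc7a11 (0.14), Gpx4 (0.0088) and Gstm1 (0.021) in estrus over metestrus, and Slc7a11 (0.30), Gpx4 (0.074) and Gstm1 (0.11) in estrus over proestrus. For members whose sign held, leave-one-out ranges of the larger differences stand beside them in the results. Members whose sign turned when single libraries were left out spanned these ranges. In proestrus over metestrus they were Nfe2l2 (-0.050 to 0.26), Gclc (-0.051 to 0.14), Gclm (-0.077 to 0.14), Nqo1 (-0.37 to 0.15), Slc7a11 (-0.71 to 0.067), Gpx4 (-0.10 to 0.069), Gstm1 (-0.17 to 0.12) and Prdx6 (-0.31 to 0.051). In estrus over metestrus they were Gclc (-0.076 to 0.20), Hmox1 (-0.33 to 0.21), Slc7a11 (-0.78 to 0.080), Gpx1 (-0.17 to 0.041), Gpx4 (-0.099 to 0.030) and Gstm1 (-0.21 to 0.057). In estrus over proestrus they were Gclc (-0.10 to 0.17), Slc7a11 (-0.21 to 0.36), Gpx1 (-0.041 to 0.26), Gpx4 (-0.12 to 0.054) and Gstm1 (-0.22 to 0.077), and in males over metestrus Nfe2l2 (-0.12 to 0.22), Gpx4 (-0.15 to 0.018) and Prdx6 (-0.0097 to 0.19).

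The counts of all genes past the threshold moved much more. Proestrus over metestrus had 204, and 1146 with no batch term, 75 with the removed directions counted, 1 in batches 2 and 3 alone and 1 in batch 2 alone, while leaving out 1 library gave 68 to 250. Estrus over metestrus had 18, and 899 with no batch term, 0 by limma with the removed directions counted (1715 at an unadjusted p under 0.05), 0 in batches 2 and 3 alone (1657) and 0 in batch 2 alone (2250). Leaving out 1 library gave 0 to 56, with 0 without metestrus replicate 1 (1771 unadjusted) and without estrus replicate 2 (1933). Estrus over proestrus had 194, and 310 after median centring, 3.6e2 with no batch term (217 higher and 144 lower), 52 with the removed directions counted, 0 by limma in batches 2 and 3 alone (2249 unadjusted) and 0 in batch 2 alone (2953), while leaving out 1 library gave 66 to 430. Males over metestrus had 5, and 17 with low values raised, 10 with no batch term and, leaving out 1 library, 5 to 8. The 4-group test had 131, and 2579 with no batch term, 32 with the removed directions counted and, leaving out 1 library, 40 to 174. Raising low values turned the split in proestrus over metestrus to 117 higher and 58 lower (48 and 156 as reported), in estrus over metestrus to 15 and 2 (4 and 14) and in estrus over proestrus to 110 and 139 (123 and 71). Titles carry the numbers 1 to 4 in both males and metestrus of batch 4. Same-numbered libraries deviated with r of 0.16, 0.03, -0.26 and -0.13. The labels do not say whether the numbers pair libraries. These r values cannot decide it, because directions of variation were removed before deposit. A replicate block on these numbers gave 4 calls in males over metestrus, and no member passed.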
